A study of Mus musculus with 9 samples.

Results

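Integrins, laminins and nidogens form the link between a cell and its basement membrane, and their transcripts were read from poly-A RNA-seq of MCEC, a long-established cell line that was derived from the endothelium of the mouse heart. The set was defined by name: protein-coding genes whose symbol begins with Itga or Itgb and that encode an integrin subunit, the laminin chains Lama, Lamb and Lamc followed by a digit, and the nidogens Nid1 and Nid2. It held 40 of the 55487 genes in the count table: 18 integrin alpha subunits, 9 integrin beta subunits, 5 laminin alpha, 3 laminin beta and 3 laminin gamma chains, and 2 nidogens. The 9 libraries formed 3 groups of 3: wild-type MCEC (WT), MCEC with Zbtb46 knocked down (KD) and MCEC with enforced Zbtb46 overexpression (OE). Zbtb46 is a zinc finger transcription factor. All 3 groups are the same line. The labels state neither by what means Zbtb46 was lowered or raised nor whether a group is 1 clone, and no library from cells given a control vector was analysed here, so the effect of Zbtb46 and that of making the cells cannot be told apart. Nothing in the labels says that replicates were separate cultures, and the p values therefore measure only the spread between these samples, which may be technical.

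Laminins are trimers of an alpha, a beta and a gamma chain that assemble into the sheet of the basement membrane. Nidogens bridge this sheet to the network of type IV collagen, and integrins, heterodimers of an alpha and a beta subunit in the plasma membrane, bind laminins, collagens, fibronectin or counter-receptors on other cells and tie them to the actin cytoskeleton. The basement membrane under the endothelium is known for the laminin alpha chains Lama4 and Lama5, and endothelial cells use mainly integrins built on Itgb1 together with those built on Itgav.

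Each library held between 39491828 and 55745849 counts, with 7.32% to 18.03% of them on 1 ribosomal RNA feature (CT010467.1). Zbtb46 mRNA measured 13.7 ± 0.623 CPM for WT, 11.2 ± 0.537 CPM for KD and 191 ± 2.67 CPM for OE (CPM, counts scaled to a common library total with TMM factors; SD, n = 3), so that it fell by 17.8% in KD (edgeR adjusted p 0.00144). The cells were checked against 10 endothelial markers. Erg was at 0 counts in every library, and Pecam1, Cdh5, Tie1 and Emcn, which define endothelium, had at most 10 counts in each. The summed level of the 10 markers was 129 to 143 CPM for WT, 113 to 118 for KD and 87.0 to 94.3 for OE, and most of it was Eng (125 ± 6.78 CPM in WT). In contrast, 6 fibroblast markers summed to 8093 to 8958 CPM for WT, 8041 to 8168 for KD and 5074 to 5186 for OE, with Col1a1, Col3a1 and Dcn carrying the sum and Lum and Tcf21 at no more than 10 counts. Mural cell markers summed to 9.36 to 11.4 CPM for WT, 7.86 to 9.34 for KD and 6.89 to 7.89 for OE, and cardiomyocyte markers to 2.07 to 2.60, 1.88 to 2.30 and 1.80 to 2.75 CPM, with Myh6 at 0. The markers thus went against the endothelial label in every group, and the cells are called MCEC below. In bulk RNA, fewer cells of a type and less RNA per cell cannot be told apart.

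Of the 40 genes, 29 passed the filter on low counts: 11 alpha and 7 beta integrins, 9 laminin chains and both nidogens. The other 11 (Itga2, Itga4, Itga8, Itga9, Itgad, Itgam, Itgax, Itgb2l, Itgb6, Lama1 and Lama2) never exceeded 12 counts in a library and were not tested. Levels covered a wide range, with 15 genes at a mean of at least 10 CPM in some group and 18 under 1 CPM in every group, 7 of these among the tested genes. Per kb of exon, the most abundant were Itgb1 (179.7 CPM per kb for WT, 199.99 for KD and 151 for OE), the common beta subunit, Itga3 (106 CPM per kb for WT, 116 for KD and 87.1 for OE), which joins Itgb1 to bind laminins, and Lamc1 (95.7 CPM per kb for WT, 108 for KD and 75.2 for OE), the gamma chain of most laminins. On the same scale, Lama5 reached 42.6 CPM per kb for WT, 42.6 for KD and 38.7 for OE. In the plot of levels by library, these genes stand at the top in every group, while Nid2, Lamb3, Itga1 and Itgal are among those that differ most between groups.

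**Figure D1:**
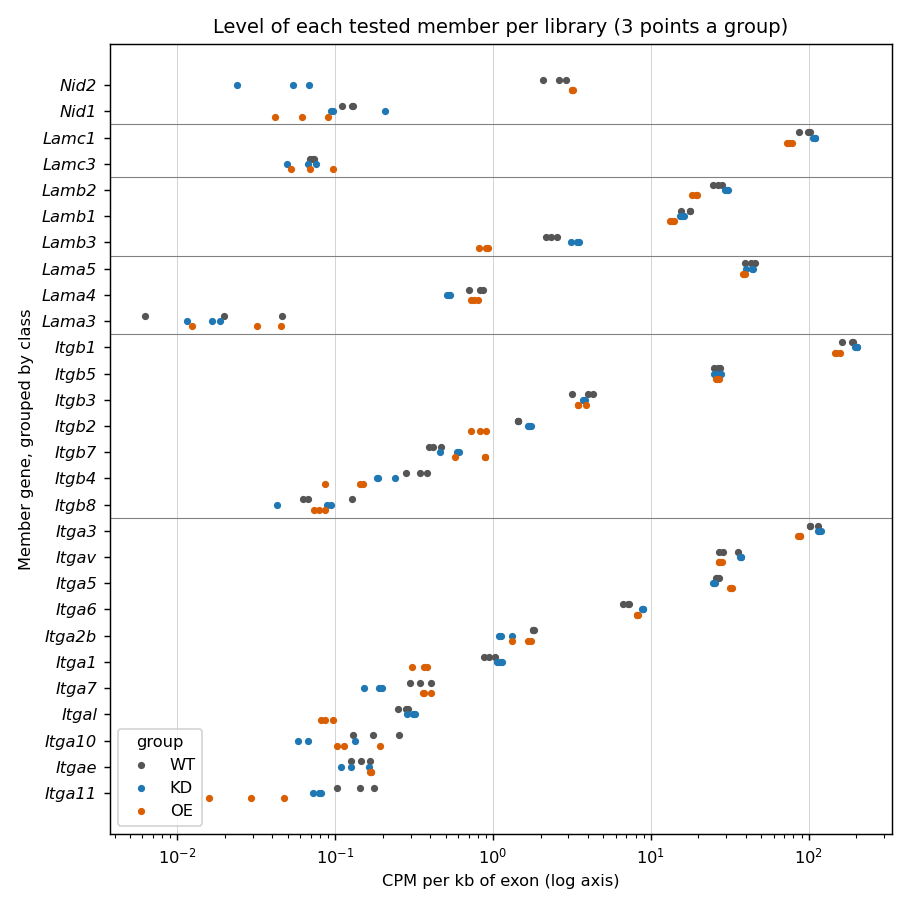
Level of 28 of the 29 tested genes in each library, in CPM per kb of exon on a log axis, with 3 points for each of WT (grey), KD (blue) and OE (orange) and genes grouped by class. Itgb1, Itga3 and Lamc1 lie at the right in all groups, and Nid2 falls to the left in KD alone.

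Within each class a few genes carried most of the transcripts, as the plot of class make-up shows. Of laminin alpha chains per kb of exon, Lama5 made up 98.1% for WT, 98.7% for KD and 98.0% for OE. Of integrin beta subunits on this scale, Itgb1 made up 84.6% for WT, 86.0% for KD and 82.6% for OE. Of integrin alpha subunits, Itga3 made up 61.1% for WT, 61.1% for KD and 55.3% for OE, Itgav 17.4% for WT, 19.4% for KD and 17.4% for OE, and Itga5 15.2% for WT, 13.2% for KD and 20.4% for OE. Itga5, a fibronectin receptor subunit, thus had its largest share in OE and Itga3 its smallest, whereas the mean shares of Itgav and Itga6 (4.04% for WT, 4.66% for KD and 5.19% for OE) were higher in KD than in WT. For Itgav the libraries overlapped, WT replicate 2 lying above all 3 of KD. Summed over a class, laminin beta chains measured 45.8 ± 2.90 CPM per kb for WT, 49.2 ± 1.102 for KD and 33.5 ± 0.591 for OE (SD, n = 3). This sum was lowest in OE. The sum of laminin alpha chains was 43.4 ± 3.02 CPM per kb for WT, 43.2 ± 2.50 for KD and 39.5 ± 0.684 for OE (SD, n = 3), with the 3 OE libraries just below the lowest WT library. These shares and sums are descriptions, with no test.

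**Figure D2:**
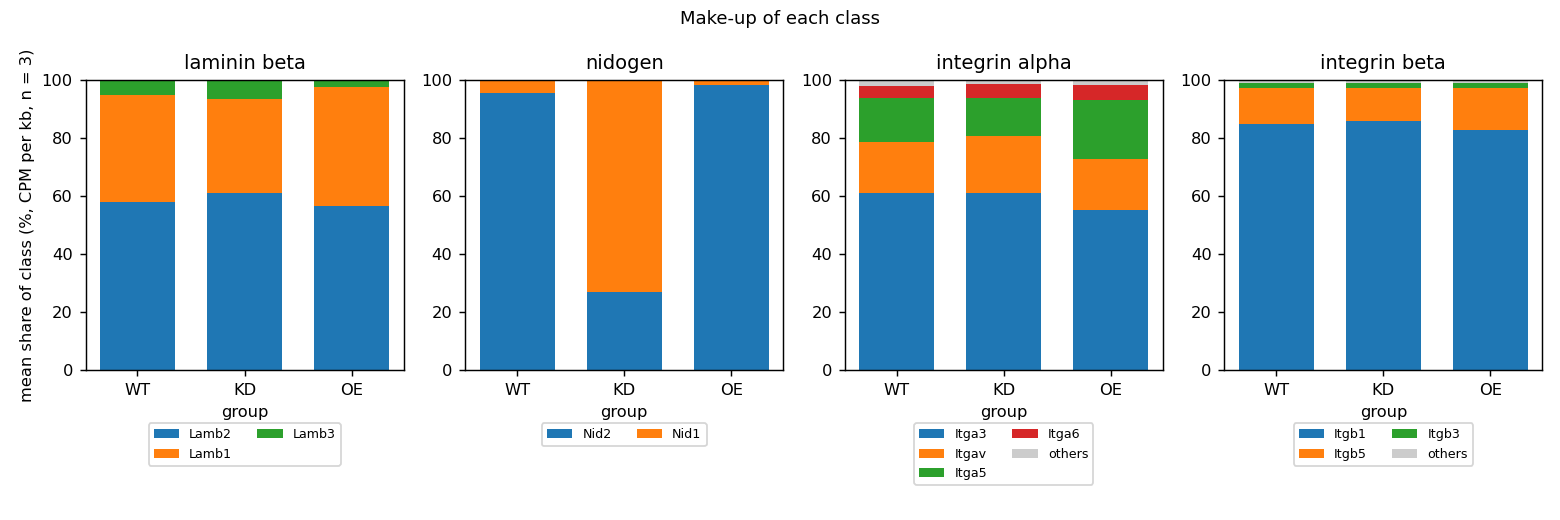
Mean share of each gene in the summed CPM per kb of its class, in percent (n = 3 libraries a group), for laminin beta chains, nidogens, integrin alpha and integrin beta subunits. Nid2 fills 95.3% of the nidogen bar in WT and 26.9% in KD, while the other classes shift by smaller amounts.

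KD and WT were compared to ask which of these genes differ with less Zbtb46. Nid2 fell to 14 counts or fewer in a library, and the laminin chain Lama4 and the integrins Itga7, Itga2b and Itgb4 were also lower. Against this, 8 genes were modestly higher, including the integrins Itga3, Itga6, Itgav and Itgb1 and the laminin chains Lamb2, Lamb3 and Lamc1. In all, 13 of 29 tested genes (44.8%) passed the threshold (Benjamini-Hochberg adjusted p under 0.05, quasi-likelihood test of edgeR), against 21.3% of the 16955 genes tested. By direction, the 8 higher stood beside 11% of all genes and the 5 lower beside 10.4%. Libraries of KD and WT did not overlap for 16 of the 29 (background 34.7%), and 5 changes were at least 1.5-fold (background 4.77%). The median log2 fold change over the 29 genes was -0.0012, beside -0.0022 over all genes, and the median size was 0.23 beside 0.16. The number higher was smaller with some libraries left out. Leaving out WT replicate 1 gave 4, KD replicate 1 gave 2, KD replicate 2 gave 3 and KD replicate 3 gave 5. Over all genes the number higher fell too, from 1859 to 1520, 1411, 1249 and 1358 in the same order. With libraries scaled by their totals alone, 2 of the set and 885 of all genes were higher. The calls for Itga6 and Lamb3 were those that held without any 1 library.

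In the comparison of OE with WT, which asked what differs when Zbtb46 is raised, the larger number fell. All 3 laminin beta chains, Lamc1 and Lama5 were lower, as were Itga1, Itga11, Itga3, Itgal, Itgb2 and Itgb4, and Itgb1, which turned higher once the median change of its 20 Mb genome window was removed. Itga5, Itga6, Itgb7 and Nid2 were higher. That made 16 of 29 genes (55.2%) in edgeR's quasi-likelihood test, against 36.4% of all genes, with 4 higher (background 17%) and 12 lower (background 19.5%). Groups stood apart without overlap for 18 genes (background 45.1%) and 7 changes reached 1.5-fold (background 11%). The median log2 fold change was -0.15, beside 0.0020 over all genes. Direct comparison of OE with KD gave 21 of 29 genes (72.4%, background 41.5%), 5 higher in OE (Itga2b, Itga5, Itga7, Lama4 and Nid2; background 19.4%) and 16 lower (background 22.1%), with a median of -0.14 beside 0.011. Here 21 genes had groups without overlap (background 55.4%), and 10 changes reached 1.5-fold (background 15.7%). The 3 comparisons share libraries in pairs, so each one's values are given side by side below and no correlation between them is given.

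**Figure D3:**
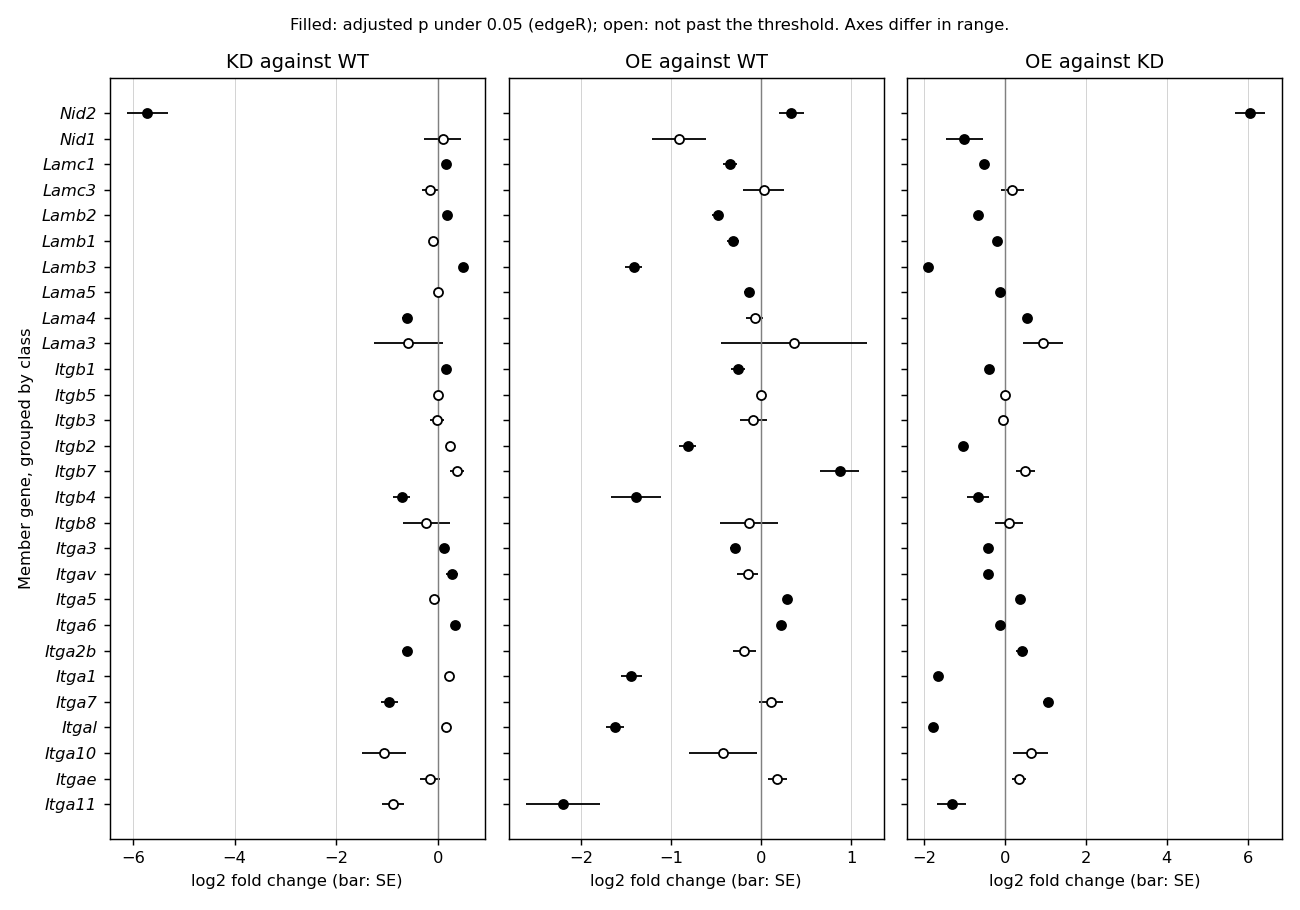
Log2 fold change of 28 of the 29 tested genes in the 3 comparisons, with bars for the SE; filled points passed an adjusted p of 0.05 with edgeR. The axes differ in range, because Nid2 lies at -5.72 in KD and at 6.06 in OE against KD.

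Nid2 encodes nidogen-2, one of the 2 proteins that join laminin to type IV collagen. The gene lies on chromosome 14, plus strand, at 19751265 to 19811787 (ENSMUSG00000021806); positions here and below are those of GENCODE M21 on GRCm38. Its level was 10.8, 13.5 and 14.9 CPM in WT, 0.278, 0.352 and 0.123 CPM in KD and 16.4, 16.4 and 16.7 CPM in OE. The KD libraries held 14, 14 and 6 counts, against 409, 803 and 667 in WT, so all KD libraries lay far below all others, and the 3 OE libraries lay just above the highest WT library. The fall in KD was 52.9-fold (log2 fold change -5.72, SE 0.40, edgeR adjusted p 5.09e-14). It kept its direction and its call in all 18 alternative settings that tested it. In OE the difference from WT was small (log2 fold change 0.34, SE 0.14, edgeR adjusted p 0.0301) and the call was lost without WT replicate 1 or OE replicate 1, 2 or 3 (log2 fold change 0.22 to 0.34, edgeR adjusted p 0.079 to 0.167), and with library totals alone or 20 Mb window medians removed. Nid2 shares 437 exon bases, 8.45% of its exon length, with Rtraf on the opposite strand. The use of strand in counting is not given in the sources used here, so reads in that stretch cannot be told apart. Rtraf measured 68.6 ± 3.62 CPM for WT, 65.0 ± 1.16 CPM for KD and 76.1 ± 3.66 CPM for OE (SD, n = 3).

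Nid1 encodes nidogen-1, the founding member of the pair. It lies on chromosome 13, plus strand, at 13437551 to 13512269 (ENSMUSG00000005397) and was scarce in all groups: 0.896, 0.891 and 0.761 CPM in WT, 0.656, 1.43 and 0.676 CPM in KD and 0.426, 0.626 and 0.289 CPM in OE. KD replicate 2 stood above the other libraries, and the OE libraries lay below those of WT. Neither comparison with WT passed the threshold (log2 fold change 0.10, SE 0.36, edgeR adjusted p 0.895 in KD; log2 fold change -0.91, SE 0.30, edgeR adjusted p 0.0678 in OE). The KD value turned negative without KD replicate 2, and OE passed with a filter of 10 counts in every library and without OE replicate 2 (for the latter, edgeR adjusted p 0.0367). OE was lower than KD (log2 fold change -1.01, SE 0.46, edgeR adjusted p 0.0378), a call lost without KD replicate 2 or OE replicate 1 or 3 (log2 fold change -0.98 to -0.57, edgeR adjusted p 0.0946 to 0.293), and with limma-voom or 20 Mb window medians removed. Per kb of exon, the nidogens together measured 2.65 ± 0.398 CPM per kb for WT, 0.181 ± 0.0817 for KD and 3.26 ± 0.0187 for OE (SD, n = 3). Of this sum, Nid2 supplied 95.3% for WT, 26.9% for KD and 98.0% for OE. The larger share of Nid1 in KD thus came with a small sum, as its mean was 0.921 CPM there and 0.849 CPM in WT.

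**Figure D4:**
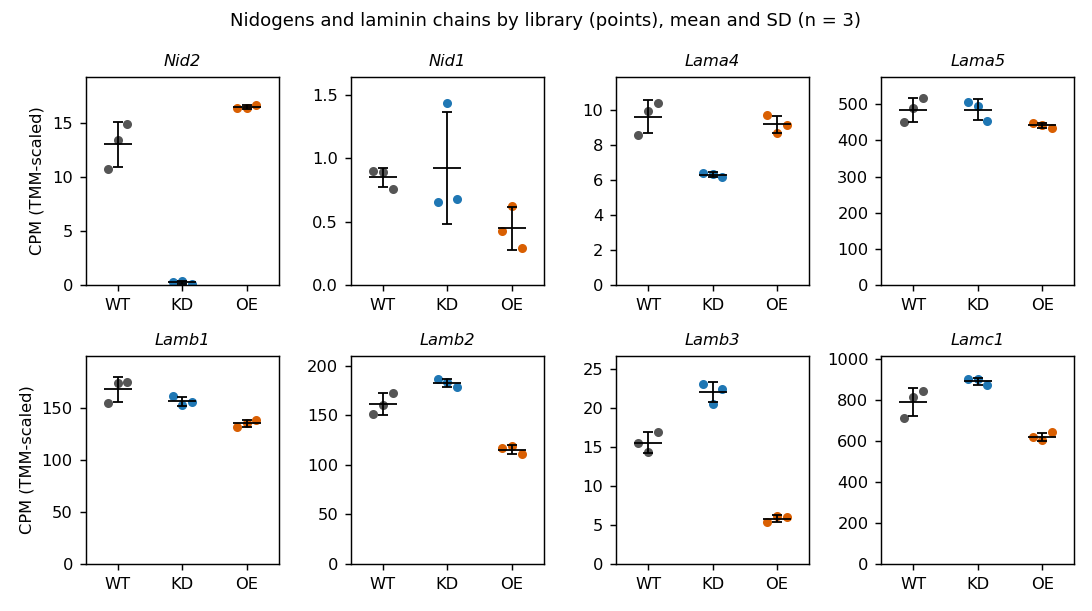
CPM of both nidogens and of 6 laminin chains in each library (points), with the group mean and SD (n = 3); each panel has its own axis from 0. Nid2 is near 0 in the KD libraries, and Lamb3 is highest in KD (22.0 CPM) and lowest in OE (5.81 CPM).

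Among laminin alpha chains, which carry the sites that bind receptors on cells, Lama5 was by far the most abundant. Lama5 lies on chromosome 2, minus strand, at 180176373 to 180225859 (ENSMUSG00000015647) and measured 449.7, 489 and 516 CPM in WT, 508, 495 and 453 CPM in KD and 448, 442 and 434 CPM in OE. KD and WT libraries overlapped and their means differed by little (log2 fold change 0.00053, SE 0.076, edgeR adjusted p 0.996), with a sign that depended on the setting and turned when WT replicate 1 was left out, and when KD replicate 1 or 2 was. All OE libraries lay below all WT libraries, by a small amount (log2 fold change -0.14, SE 0.060, edgeR adjusted p 0.037), and the call was lost without WT replicate 2 or 3 or OE replicate 1, 2 or 3 (edgeR adjusted p 0.0618 to 0.127), and with upper-quartile factors or 20 Mb window medians removed. Between OE and KD the difference was -0.14 (SE 0.051, edgeR adjusted p 0.032), likewise lost without KD replicate 1 or 2 or OE replicate 1, 2 or 3 (edgeR adjusted p 0.0623 to 0.142), and with upper-quartile factors or library totals alone. Lama4, the other chain of vessel walls, behaved differently. The gene lies on chromosome 10, plus strand, at 38965515 to 39110188 (ENSMUSG00000019846) and measured 8.54, 9.93 and 10.4 CPM in WT, 6.42, 6.33 and 6.17 CPM in KD and 9.68, 8.68 and 9.14 CPM in OE. Its 3 KD libraries lay below all others, and WT and OE libraries overlapped. In KD it fell by 34.5% (log2 fold change -0.61, SE 0.086, edgeR adjusted p 0.000219), OE against WT gave -0.072 (SE 0.10, edgeR adjusted p 0.639), which did not pass, and OE was higher than KD by 0.54 (SE 0.048, edgeR adjusted p 0.00027). The call in KD held in all 19 settings. The endothelial marker sum was lower in KD too, with 3 of 5 tested markers lower (background 10.4%). In OE the sum was lower still, at 87.0 to 94.3 CPM against 113 to 118 in KD. There 4 of the 5 were lower than in WT (background 19.5%). The part of this sum in the Nid2 and Lama4 results was not tested. Lama3, the epithelial alpha chain, had at most 24 counts in a library and passed in no comparison.

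All 3 laminin beta chains were lower in OE than in WT and in KD. Lamb3 is the beta chain of the epithelial laminin that anchors hemidesmosomes. It lies on chromosome 1, plus strand, at 193207699 to 193343878 (ENSMUSG00000026639) and measured 15.4, 14.3 and 16.9 CPM in WT, 23.0, 20.5 and 22.5 CPM in KD and 5.35, 6.14 and 5.96 CPM in OE. The groups did not overlap: KD libraries were highest, WT between and OE lowest. KD was 41.9% above WT (log2 fold change 0.50, SE 0.086, edgeR adjusted p 0.000181) and OE 2.67-fold below it (log2 fold change -1.42, SE 0.092, edgeR adjusted p 1.53e-10). From KD to OE the fall was 3.79-fold (log2 fold change -1.92, SE 0.078, edgeR adjusted p 5.95e-13). All 3 calls held in the 19 settings. Among the 6 epithelial markers, whose sum was 508 to 583 CPM for WT, 581 to 602 for KD and 429 to 435 for OE, most was Krt14, at 538 ± 38.4 CPM for WT, 589 ± 10.6 CPM for KD and 431 ± 4.01 CPM for OE (SD, n = 3), while Krt5 was at 0 and Epcam had at most 2 counts. The part of such cells in the Lamb3 result was not tested.

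Lamb2 and Lamb1 supplied the bulk of the beta chains. Lamb2, prominent in the basement membranes of vessels, muscle and kidney, lies on chromosome 9, plus strand, at 108479736 to 108490530 (ENSMUSG00000052911) and measured 151, 161 and 173 CPM in WT, 187, 183 and 179 CPM in KD and 117, 119 and 111 CPM in OE. The 3 groups were again separate, with KD highest and OE lowest. The rise in KD was 0.18 (SE 0.058, edgeR adjusted p 0.00985) on the log2 scale and was lost without WT replicate 1 or KD replicate 1 (edgeR adjusted p 0.0586 to 0.0606), and with library totals alone, while the log2 fold change of OE was -0.48 (SE 0.064, edgeR adjusted p 7.93e-08) against WT and -0.66 (SE 0.037, edgeR adjusted p 4.14e-10) against KD, both held in all settings. Lamb1, the beta chain of most other laminins, lies on chromosome 12, plus strand, at 31265234 to 31329644 (ENSMUSG00000002900) and measured 154, 174 and 174 CPM in WT, 161, 152 and 156 CPM in KD and 131, 135 and 138 CPM in OE. Its OE libraries lay below all WT and KD libraries (log2 fold change -0.31, SE 0.063, edgeR adjusted p 2.63e-05; against KD -0.21, SE 0.032, edgeR adjusted p 0.00118). In KD it did not pass (log2 fold change -0.10, SE 0.063, edgeR adjusted p 0.158), but it did without WT replicate 1 (edgeR adjusted p 0.0172). Its KD mean lay below that of WT, where the KD means of Lamb2 and Lamb3 lay above, and its share of beta chains per kb was 36.9% for WT, 32.1% for KD and 40.7% for OE.

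Lamc1, found in most laminin trimers, lies on chromosome 1, minus strand, at 153218922 to 153332786 (ENSMUSG00000026478) and measured 714, 816 and 845 CPM in WT, 902, 901 and 874 CPM in KD and 618, 606 and 643 CPM in OE. KD libraries lay above and OE libraries below all WT libraries. The rise in KD was 0.17 (SE 0.076, edgeR adjusted p 0.0172) on the log2 scale and was lost without WT replicate 1 or KD replicate 1 or 2 (log2 fold change 0.10 to 0.17, edgeR adjusted p 0.0705 to 0.0843), and with library totals alone, a fit of only the groups compared or 20 Mb window medians removed. OE had a log2 fold change of -0.35 (SE 0.079, edgeR adjusted p 1.59e-05) against WT and -0.52 (SE 0.030, edgeR adjusted p 5.26e-08) against KD, and both calls held in all settings. Lamc3, a gamma chain of restricted tissues, stayed under 1 CPM in each group and passed in no comparison. In OE the falls of Lamb1, Lamb2, Lamb3 and Lamc1 accompanied the lower fibroblast marker sum given above, in which all 4 tested markers were lower (background 19.5%). Of other tested markers, 4 of 5 endothelial, 2 of 3 epithelial and 1 of 4 mural ones were lower in OE too, and none of these lists had a higher one. Of 2 cardiomyocyte markers, 1 was higher and 1 lower. The part of these differences in the laminin results was not tested.

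To set sequence beside the values, the 250 bases before the transcript start are shown for Lamb3 and Itga1, which fell strongly in OE, and for Itga5, which rose; these 3 were chosen after their values were seen. RefSeq promoters on GRCm38.p6 were matched for 25 of the 40 genes. Each run is on the gene's strand, 5′ to 3′, and capitals mark a GC box (GGGCGG or its reverse complement CCGCCC, the letters bound by Sp1 family factors). For Lamb3 the first of 2 starts in the table is shown, which lies inside the GENCODE gene.
Lamb3 (chr1:193301744-193301993, + strand): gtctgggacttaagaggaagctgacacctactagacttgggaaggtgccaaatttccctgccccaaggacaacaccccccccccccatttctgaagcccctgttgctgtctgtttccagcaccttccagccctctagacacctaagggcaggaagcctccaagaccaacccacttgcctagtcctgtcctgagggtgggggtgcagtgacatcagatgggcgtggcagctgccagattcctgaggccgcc
Itga1 (chr13:115101965-115102214, - strand): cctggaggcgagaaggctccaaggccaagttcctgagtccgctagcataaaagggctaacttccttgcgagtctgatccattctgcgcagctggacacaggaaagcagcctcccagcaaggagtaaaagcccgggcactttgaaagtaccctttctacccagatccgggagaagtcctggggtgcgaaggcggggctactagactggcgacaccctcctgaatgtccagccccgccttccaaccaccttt
Itga5 (chr15:103366792-103367041, - strand): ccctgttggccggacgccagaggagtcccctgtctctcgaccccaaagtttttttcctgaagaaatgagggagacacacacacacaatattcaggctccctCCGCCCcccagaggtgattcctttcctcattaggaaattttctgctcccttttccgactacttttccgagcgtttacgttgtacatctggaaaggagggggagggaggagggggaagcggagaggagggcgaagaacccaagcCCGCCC
Itga5 held 2 GC boxes in this window, and the windows of Lamb3 and Itga1 held none, where 32.74% of the 32851 windows of the same length hold at least 1. Among the 25 matched genes, 9 had a GC box, among them Itga3, Lama5 and Lamb1, which fell in OE, beside Itga5, which rose. The same search, on both strands, covered CCAAT (33.85% of all windows, 5 of the 25 genes), TATAAA (12.37%, 0 genes), the AP-1 letters TGANTCA (6.75%, Itgax) and the ETS letters CCGGAAG (6.91%, Itga3). Counted by window, as the background is, 10 of the 28 windows of the matched genes held a GC box and 5 held CCAAT. None of the 4 motifs other than the GC box was found in the 3 sequences printed. A match is a description of these letters and not a site.

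Itgb1 is the beta subunit that pairs with most of the alpha subunits detected here and so takes part in binding laminin, collagen and fibronectin. It lies on chromosome 8, plus strand, at 128685654 to 128733200 (ENSMUSG00000025809) and measured 763, 773 and 664 CPM in WT, 806, 819.6 and 823 CPM in KD and 599, 604 and 640.3 CPM in OE. KD libraries lay above and OE libraries below all WT libraries. The rise in KD was 0.15 (SE 0.071, edgeR adjusted p 0.0291) on the log2 scale and was lost without WT replicate 3 or KD replicate 1, 2 or 3 (log2 fold change 0.089 to 0.16, edgeR adjusted p 0.0586 to 0.109), and with upper-quartile factors, library totals alone, a fit of only the groups compared or 20 Mb window medians removed. The log2 fold change of OE was -0.26 (SE 0.076, edgeR adjusted p 0.000326) against WT and -0.41 (SE 0.032, edgeR adjusted p 8.69e-07) against KD, but its direction turned when the median of the surrounding 20 Mb window was removed, to 0.18 (edgeR adjusted p 0.0121) against WT and 0.064 (edgeR adjusted p 0.38) against KD. The 105 tested genes of that window of chromosome 8 gave a median of -0.44 on the log2 scale in OE against WT and -0.47 against KD. Of the other beta subunits expressed well, Itgb5 measured 93.8 ± 4.13 CPM for WT, 93.7 ± 4.88 CPM for KD and 93.6 ± 1.93 CPM for OE (SD, n = 3) and passed in no comparison. Itgb5 pairs with Itgav to bind vitronectin.

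The laminin-binding alpha subunits did not move as one. Itga3 had the highest level of them, with 608 ± 40.9 CPM for WT, 665 ± 13.6 CPM for KD and 497 ± 5.56 CPM for OE (SD, n = 3). It was lower in OE (log2 fold change -0.29, SE 0.056, edgeR adjusted p 1.92e-05; against KD -0.42, SE 0.019, edgeR adjusted p 9.49e-08) and slightly higher in KD (log2 fold change 0.13, SE 0.058, edgeR adjusted p 0.0407), the last a call lost without any one of 8 of the 9 libraries, WT replicate 3 being the exception, and with library totals alone and other settings (without a library, edgeR adjusted p 0.0564 to 0.171). Itga6, which pairs with Itgb1 or Itgb4, lies on chromosome 2, plus strand, at 71745616 to 71858416 (ENSMUSG00000027111) and measured 65.0, 65.1 and 60.1 CPM in WT, 80.3, 80.8 and 79.2 CPM in KD and 73.7, 73.3 and 74.3 CPM in OE. Both modified groups lay above all WT libraries, KD more so (log2 fold change 0.34, SE 0.039, edgeR adjusted p 2.12e-05) than OE (log2 fold change 0.22, SE 0.038, edgeR adjusted p 0.000852), where the call was lost with library totals alone. The difference between OE and KD was -0.12 (SE 0.010, edgeR adjusted p 0.0456), lost without KD replicate 1, 2 or 3 or OE replicate 1, 2 or 3 (edgeR adjusted p 0.0827 to 0.126), and with upper-quartile factors, library totals alone or no filter beyond 1 count. Itga7, the laminin receptor known from muscle, lies on chromosome 10, plus strand, at 128933818 to 128958282 (ENSMUSG00000025348) and measured 2.77, 2.42 and 3.27 CPM in WT, 1.23, 1.53 and 1.60 CPM in KD and 3.26, 2.91 and 2.93 CPM in OE. The KD libraries lay below all others and WT and OE overlapped. The log2 fold change was -0.95 (SE 0.17, edgeR adjusted p 0.000887) in KD and 1.06 (SE 0.12, edgeR adjusted p 9.18e-05) for OE against KD, while for OE against WT it was 0.11 (SE 0.13, edgeR adjusted p 0.683) and did not pass, turning to -0.0028 without WT replicate 2.

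Itgb4, the partner of Itga6 in hemidesmosomes, was weakly expressed and lowest in OE. It lies on chromosome 11, plus strand, at 115974709 to 116008412 (ENSMUSG00000020758) and measured 2.66, 1.97 and 2.42 CPM in WT, 1.67, 1.31 and 1.29 CPM in KD and 1.002, 1.05 and 0.600 CPM in OE. WT libraries were above all KD libraries, and KD above all OE libraries. The log2 fold change in OE was -1.39 (SE 0.28, edgeR adjusted p 0.000117) and held in all settings. In KD it was -0.71 (SE 0.17, edgeR adjusted p 0.0344), lost without WT replicate 1 or 3 or KD replicate 2 or 3 (edgeR adjusted p 0.0785 to 0.13), and with 20 Mb window medians removed, and for OE against KD it was -0.68 (SE 0.27, edgeR adjusted p 0.0352), lost without KD replicate 1 or OE replicate 3 (edgeR adjusted p 0.151 to 0.167), and with upper-quartile factors or limma-voom. Both Itgb4 and Lamb3 were lowest in OE, but Lamb3 was highest in KD and Itgb4 in WT.

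**Figure D5:**
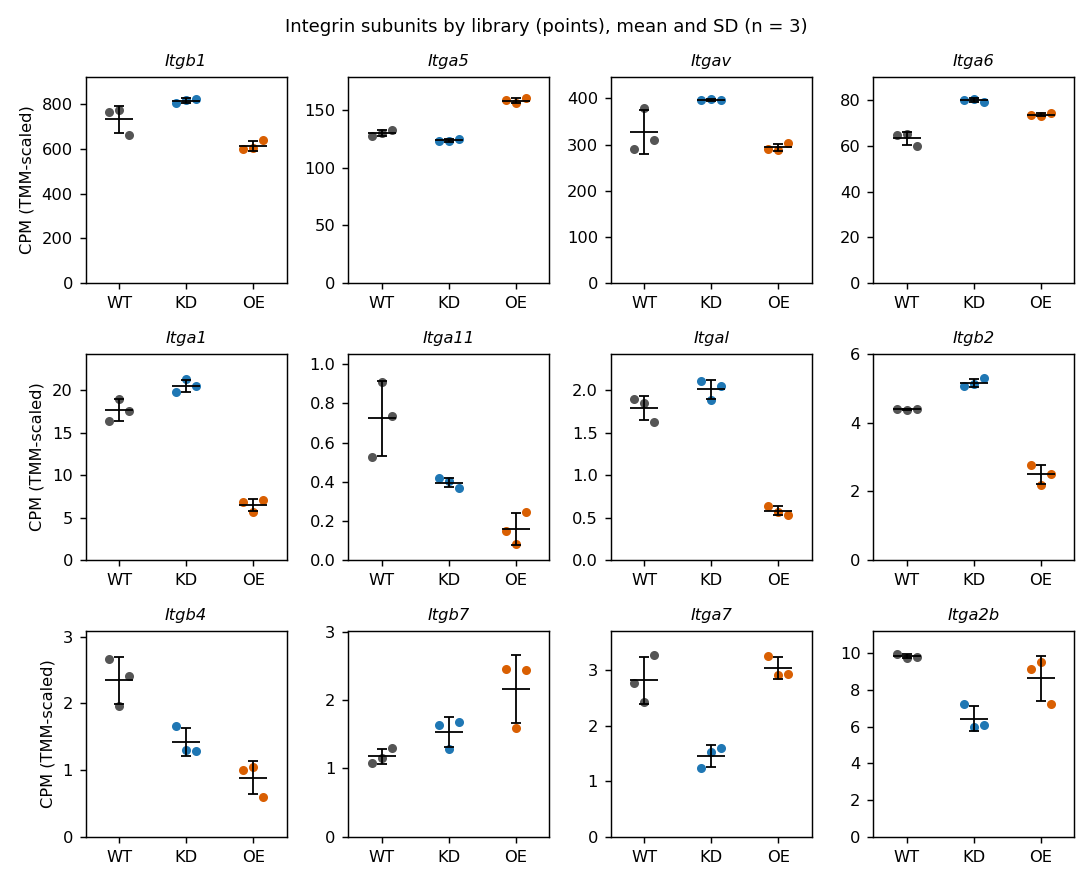
CPM of 12 integrin subunits in each library (points), with the group mean and SD (n = 3); each panel has its own axis from 0. Itga1, Itgal, Itgb2 and Itga11 have their lowest libraries in OE, and Itga7 and Itga2b in KD.

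The collagen-binding subunits Itga1 and Itga11, both partners of Itgb1, were lower in OE. Itga1 lies on chromosome 13, minus strand, at 114953096 to 115101964 (ENSMUSG00000042284) and measured 16.4, 19.0 and 17.5 CPM in WT, 19.8, 21.3 and 20.5 CPM in KD and 6.78, 5.67 and 7.07 CPM in OE. All OE libraries lay below all others, 2.72-fold lower than WT (log2 fold change -1.44, SE 0.11, edgeR adjusted p 1.17e-10; against KD -1.66, SE 0.10, edgeR adjusted p 7.11e-12). KD did not pass (log2 fold change 0.21, SE 0.069, edgeR adjusted p 0.0873), except without WT replicate 2 (edgeR adjusted p 0.0298). Genes in its 20 Mb window of chromosome 13 had a median of -0.26 in OE, and with this removed the log2 fold change was -1.18 (edgeR adjusted p 1.04e-09). Pelo, which lies within the Itga1 locus on the same strand, measured 10.9 ± 1.17 CPM for WT, 11.4 ± 0.178 CPM for KD and 6.72 ± 0.481 CPM for OE (SD, n = 3), with a log2 fold change for OE of -0.69 (edgeR adjusted p 1.67e-05). Itga11, known from fibroblasts, lies on chromosome 9, plus strand, at 62677826 to 62783982 (ENSMUSG00000032243) and had 20, 54 and 33 counts in WT, 21, 16 and 18 in KD and 7, 4 and 11 in OE, which is 0.527, 0.907 and 0.738 CPM in WT, 0.417, 0.402 and 0.369 CPM in KD and 0.149, 0.0808 and 0.244 CPM in OE. OE was below WT (log2 fold change -2.21, SE 0.41, edgeR adjusted p 0.000625), and in its window of chromosome 9 the median was -0.34; the change was -1.87 (edgeR adjusted p 0.00288) without it. KD did not pass although its libraries lay below those of WT (log2 fold change -0.88, SE 0.22, edgeR adjusted p 0.139). The difference of OE from KD, -1.32 (SE 0.36, edgeR adjusted p 0.0315), was lost without KD replicate 1, 2 or 3 or OE replicate 1 or 2 (edgeR adjusted p 0.0564 to 0.139), and with no filter beyond 1 count or 20 Mb window medians removed. Itga10, the collagen receptor of cartilage, measured 0.962 ± 0.328 CPM for WT, 0.448 ± 0.215 CPM for KD and 0.707 ± 0.257 CPM for OE (SD, n = 3). No comparison passed, but its lower level in KD (log2 fold change -1.06, SE 0.43, edgeR adjusted p 0.0631) did without WT replicate 2 or KD replicate 1 (edgeR adjusted p 0.0264 and 0.0256), and with no filter beyond 1 count or a filter of 10 counts in every library. Itga10 shares 33.5% of its exon length with Gm42957 on the same strand, which had at most 2 counts, and how shared reads were counted is not given.

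Itga5 binds the RGD motif of fibronectin, and Itgav those of fibronectin and vitronectin. Itga5, the partner of Itgb1 in the main fibronectin receptor, lies on chromosome 15, minus strand, at 103344286 to 103366763 (ENSMUSG00000000555) and measured 127, 130.3 and 133 CPM in WT, 124, 123 and 125 CPM in KD and 159, 156 and 160.1 CPM in OE. The OE libraries were above all others (log2 fold change 0.28, SE 0.022, edgeR adjusted p 8.37e-06; against KD 0.35, SE 0.014, edgeR adjusted p 2.53e-07), and the KD libraries lay slightly below those of WT without passing (log2 fold change -0.073, SE 0.020, edgeR adjusted p 0.218). Fn1, which encodes fibronectin, was -0.40 (SE 0.11, edgeR adjusted p 0.00406) in KD and 0.064 (SE 0.11, edgeR adjusted p 0.585) in OE on the log2 scale, both against WT. Itgav lies on chromosome 2, plus strand, at 83724397 to 83806916 (ENSMUSG00000027087) and measured 290.2, 380.2 and 309.6 CPM in WT, 396, 399.6 and 397 CPM in KD and 290.4, 289 and 303 CPM in OE. The KD libraries were close together and above all WT libraries, of which WT replicate 2 stood nearest to KD. The rise in KD was 0.28 (SE 0.12, edgeR adjusted p 0.0245) on the log2 scale, lost without WT replicate 3 or KD replicate 1, 2 or 3 (edgeR adjusted p 0.0539 to 0.217), and with library totals alone; OE against WT was -0.15 (SE 0.12, edgeR adjusted p 0.163) and passed without WT replicate 1 (edgeR adjusted p 0.0121) and with no filter beyond 1 count (edgeR adjusted p 0.00335), and OE against KD was -0.43 (SE 0.023, edgeR adjusted p 0.000794).

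Itgb3 and Itga2b form the fibrinogen receptor of platelets, and Itgb3 also pairs with Itgav in sprouting vessels. Itgb3 lies on chromosome 11, plus strand, at 104608000 to 104670476 (ENSMUSG00000020689) and measured 18.6, 23.6 and 25.5 CPM in WT, 22.4, 22.6 and 21.9 CPM in KD and 20.5, 20.4 and 23.0 CPM in OE. The groups overlapped, and no comparison passed (log2 fold change -0.019, SE 0.14, edgeR adjusted p 0.918 in KD; log2 fold change -0.086, SE 0.15, edgeR adjusted p 0.512 in OE; log2 fold change -0.067, SE 0.058, edgeR adjusted p 0.609 for OE against KD), and the sign in KD turned without WT replicate 2 or 3. OE passed without WT replicate 1 (log2 fold change -0.20, edgeR adjusted p 0.0492). Itga2b lies on chromosome 11, minus strand, at 102453297 to 102470122 (ENSMUSG00000034664) and measured 9.97, 9.73 and 9.78 CPM in WT, 7.23, 5.98 and 6.08 CPM in KD and 9.12, 9.51 and 7.20 CPM in OE. Here all KD libraries lay below all WT libraries (log2 fold change -0.61, SE 0.088, edgeR adjusted p 0.000678), a call that held in all settings. OE did not pass against WT (log2 fold change -0.19, SE 0.12, edgeR adjusted p 0.223) and was above KD by 0.42 (SE 0.15, edgeR adjusted p 0.00662), which was lost without OE replicate 2 (edgeR adjusted p 0.0504). Of the 2 partners, the alpha subunit fell in KD and the beta subunit did not pass, and the difference between them was not tested.

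Itgal and Itgb2 encode the integrin by which leukocytes bind Icam1 and Icam2, and both were lower in OE. Itgal lies on chromosome 7, plus strand, at 127296260 to 127335138 (ENSMUSG00000030830) and measured 1.90, 1.85 and 1.63 CPM in WT, 2.11, 1.88 and 2.05 CPM in KD and 0.639, 0.565 and 0.533 CPM in OE. Its OE libraries lay below all others (log2 fold change -1.62, SE 0.10, edgeR adjusted p 8.89e-06; against KD -1.79, SE 0.086, edgeR adjusted p 1.54e-06), and KD did not pass (log2 fold change 0.17, SE 0.081, edgeR adjusted p 0.637). Itgb2 lies on chromosome 10, plus strand, at 77530252 to 77565708 (ENSMUSG00000000290) and measured 4.40, 4.37 and 4.41 CPM in WT, 5.07, 5.12 and 5.31 CPM in KD and 2.77, 2.20 and 2.51 CPM in OE. OE was again lowest (log2 fold change -0.82, SE 0.095, edgeR adjusted p 0.000106; against KD -1.05, SE 0.10, edgeR adjusted p 3.15e-06), and the KD libraries lay above those of WT without passing (log2 fold change 0.23, SE 0.020, edgeR adjusted p 0.252). These OE calls held in all settings. Of 6 leukocyte markers, Ptprc, the pan-leukocyte antigen, had at most 2 counts in a library and Adgre1, Cd3e and Itgam, itself an integrin subunit of the set, at most 10, while the sum was 3.88 to 4.43 CPM for WT, 4.73 to 5.19 for KD and 3.05 to 4.30 for OE. Most of that sum was Cd68, at 3.76 ± 0.176 CPM for WT, 4.86 ± 0.118 CPM for KD and 3.40 ± 0.709 CPM for OE (SD, n = 3). Itgam shares 68.67% of its exon length with Gm49368 on the same strand, which had 0 counts. How reads shared by genes were counted is not given, so the low count of Itgam is a weak sign of absence. Itgb7, known from lymphocytes that home to the gut, moved the other way. It lies on chromosome 15, minus strand, at 102215995 to 102231944 (ENSMUSG00000001281) and measured 1.08, 1.16 and 1.30 CPM in WT, 1.63, 1.28 and 1.68 CPM in KD and 2.45, 1.60 and 2.44 CPM in OE. OE was above WT (log2 fold change 0.87, SE 0.21, edgeR adjusted p 0.00479), with OE replicate 2 the lowest of its group. KD against WT did not pass (log2 fold change 0.38, SE 0.14, edgeR adjusted p 0.289), and the log2 fold change of OE against KD was 0.49 (SE 0.23, edgeR adjusted p 0.086) and passed without OE replicate 2 (edgeR adjusted p 0.0273). Of its partners, Itga4 was not tested and Itgae, whose locus contains Haspin on the opposite strand, did not pass in any comparison, nor did Itgb8.

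Other genes of the pathway were read from 4 lists. Of 16 tested basement membrane genes outside the set, 4 were higher (background 17%) and 8 lower (background 19.5%) in OE. Their median log2 fold change was -0.40 beside 0.0020 over all genes. Both chains of the ubiquitous type IV collagen were among the lower: Col4a1 (-0.89, SE 0.036, edgeR adjusted p 1.42e-13) and Col4a2 (-0.78, SE 0.047, edgeR adjusted p 3.3e-12). The heparan sulfate proteoglycans perlecan (Hspg2, 0.48, SE 0.11, edgeR adjusted p 0.00203) and agrin (Agrn, 0.30, SE 0.064, edgeR adjusted p 9.95e-05) were higher. The smallest p belonged to Npnt, a ligand of integrin Itga8, in OE (-2.07, SE 0.070, edgeR adjusted p 6.51e-17) and to Col18a1, the precursor of endostatin, in KD (-1.20, SE 0.067, edgeR adjusted p 6.11e-11). In KD this list had 2 genes higher (background 11%) and 4 lower (background 10.4%), with a median of -0.076. In OE against KD it had 3 higher (background 19.4%) and 7 lower (background 22.1%), with a median of -0.25. Npnt was again first there (-1.76, SE 0.049, edgeR adjusted p 4.86e-16). Col4a1, Col4a2, Hspg2 and Agrn, like Dag1 and Fn1, were named after their values were seen.

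Among 28 tested proteins of integrin activation and adhesion sites, 1 was higher (background 17%) and 16 lower (background 19.5%) in OE (median -0.16). There Tns3, a tensin of adhesions, had the smallest p (-1.09, SE 0.048, edgeR adjusted p 5.01e-14). In KD 9 were higher (background 11%) and 5 lower (background 10.4%), with a median of 0.066. The smallest p in KD was that of Parvb, which links integrins to actin through Ilk, at -2.05 (SE 0.29, edgeR adjusted p 1.41e-07); in OE it was the 1 gene higher, at 2.04 (SE 0.13, edgeR adjusted p 6.84e-10). Parvb measured 2.66, 3.63 and 3.15 CPM in WT, 0.854, 0.954 and 0.512 CPM in KD and 13.5, 13.0 and 12.7 CPM in OE, so its groups did not overlap. Counts of Ilk were few, with a mean of 0.575 CPM for WT, 0.560 for KD and 0.306 for OE. Overlaps with other genes were looked up only for the set, and how shared reads were counted is not given. The low count of Ilk is therefore a weak sign of absence. OE against KD gave 3 higher (background 19.4%) and 17 lower (background 22.1%), with a median of -0.28 and Tns3 at -1.34 (SE 0.019, edgeR adjusted p 1.08e-15).

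The 16 receptors of laminin other than integrins and the enzymes that glycosylate dystroglycan, all tested, had 1 higher (background 17%) and 10 lower (background 19.5%) in OE (median -0.23). The lower ones were led by Sgce, a sarcoglycan (-1.15, SE 0.038, edgeR adjusted p 3.99e-12), and included Dag1, which encodes dystroglycan itself (-0.30, SE 0.078, edgeR adjusted p 6.45e-05). In KD 2 were higher (background 11%) and 3 lower (background 10.4%), with a median of -0.10. In OE against KD 2 were higher (background 19.4%) and 8 lower (background 22.1%), with a median of -0.23 and Sgce at -1.29 (SE 0.043, edgeR adjusted p 3.31e-13). Of 19 tested integrin ligands outside the basement membrane, 2 were higher (background 17%) and 13 lower (background 19.5%) in OE (median -0.41). The smallest p was that of Vcam1, an endothelial adhesion molecule (-1.57, SE 0.076, edgeR adjusted p 2.87e-14). In KD 3 were higher (background 11%) and 8 lower (background 10.4%), with a median of -0.17. Emilin1, an elastic fibre protein, had the smallest p there (-1.41, SE 0.15, edgeR adjusted p 1.39e-07). In OE against KD 3 were higher (background 19.4%) and 14 lower (background 22.1%), with a median of -0.36 and Vcam1 at -1.60 (SE 0.039, edgeR adjusted p 1.41e-14). Col1a1 belongs both to this list and to the fibroblast markers. Each background is the share of all genes tested, and no list was tested as a set. The median over all genes was -0.0022 in KD, 0.0020 in OE and 0.011 in OE against KD.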

How the data were processed

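RNA of 9 libraries was selected for poly-A tails and sequenced from both ends, per the labels' protocols. The table deposited by the authors holds raw counts (whole numbers with differing library totals) for each Ensembl gene. The submitters' processing notes name the builds GRCm38 and mm10. The aligner, the counting program and its use of strand are not given in the sources used here. Repeated rows were collapsed (55774 rows, 55487 genes), and 0 rows named no gene. Positions, overlaps and exon lengths came from GENCODE M21, which matched all 40 genes.

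Counts were tested with edgeR 4.0.16 in R 4.3.3: filterByExpr by group (16955 genes), TMM factors, and 1 robust quasi-likelihood fit of group means to all 9 libraries. Benjamini-Hochberg adjustment covered all genes tested, at 0.05. For 3 libraries against 3, the smallest exact permutation p is 0.1. Levels are TMM-scaled CPM; the SE of a log2 fold change combines the groups' SDs of log2 CPM (offset by a prior count of 2). The genes and lists were chosen with earlier results of these data known. Values in every library are given for 13 genes fixed by name (the nidogens, Lama4, Lama5, Lamb1, Lamb2, Lamc1, Itgb1, Itga5, Itgav, Itga6, Itgb3 and Itga2b) and for others past the threshold with at least a 1.5-fold change, and in each of the 4 pathway lists the gene with the smallest p is named, except that 2 genes, included in the counts, are not reported here by name. Alternatives were DESeq2 1.42.0, limma-voom (limma 3.58.1), other scalings and filters, only the groups compared, a replicate block, 20 Mb window medians removed and leaving out each library. The fit was also run on counts simulated gene by gene with known changes in KD alone. Such counts lack shifts shared by neighbouring genes, and no outcome of that run is used here. Figures used Python 3.11.15 and matplotlib 3.10.9.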

Additional observations from a re-analysis of the deposited data

How the results depend on the processing

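Of 50 results of these genes past the threshold, 32 kept direction and call in every setting that gave a value, 16 lost the call in at least 1 setting, and 2, both of Itgb1, changed sign with window medians removed (OE against WT 0.18, OE against KD 0.064). With library totals alone, 885 genes were higher in KD and 1623 in OE, against 1859 and 2874 with TMM, and 2 genes of the set were higher in each (8 and 4 with TMM). That scaling gave a median over all genes of -0.038 in KD and -0.060 in OE. The number of the set higher in KD was 5 with only the groups compared, 5 with window medians removed and 2 to 8 with 1 library left out. Over all genes, the number higher in KD was 1534, 1710 and 1249 to 2546 in the same settings. Some changes that did not pass had no stable sign in KD: Lama5 (0.00053) was -0.028 with upper-quartile factors, -0.037 with library totals, -0.0053 with at least 10 counts in every library, -0.0011 with limma-voom, -0.0025 with only the groups compared and -0.051 to 0.049 with 1 library left out. Itgb3 (-0.019) was 0.050 with window medians removed and -0.14 to 0.073 with 1 library left out. Nid1 (0.10) was -0.028 with limma-voom, -0.0044 with window medians removed and -0.35 to 0.30 with 1 library left out. In OE, Itga7 ran from -0.0028 to 0.23 with 1 library left out. The cause of these changes was not tested. No pairing by replicate number was seen in the values. Deviations of same-numbered libraries correlated at -0.042 to 0.049, and not every library correlated best with its own number. These correlations cannot show whether same-numbered samples were prepared together, which the labels do not state. A replicate block gave 8 of the set higher and 6 lower in KD, 4 and 12 in OE, and 5 and 15 in OE against KD. Over all genes, the block gave 1861 higher and 1713 lower in KD, 2854 and 3257 in OE, and 3259 and 3710 in OE against KD. With the block, the calls of Lama5 in OE and Itga6 in OE against KD were lost. Itga10 in KD (-1.12, edgeR adjusted p 0.0224) and Nid1 in OE (-0.96, edgeR adjusted p 0.0405) were gained. At least 10 counts in every library left Nid2, Itga11 and Lama3 untested. Genes under 1 CPM had few counts, which limits what could be detected for them.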
